A study of Mus musculus with 25 samples.

Results

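The expression of 10 genes of the Notch pathway was followed in the livers and hepatoblastomas (HBs) of FVB mice. They encode the receptors Notch1, Notch2 and Notch3, the ligands Jag1, Jag2 and Dll4, and the pathway's transcriptional targets Hes1, Hey1, Heyl and Nrarp. All 10 were found by symbol among the 36333 genes of the RNA-Seq table, which gives read counts for 20 libraries in 4 groups of 5. The first group held livers from mice that had received no injection and a standard diet (2 males and 3 females). The second held HBs from mice on the same diet (3 males and 2 females), induced by the hydrodynamic delivery, through the tail vein, of Sleeping Beauty vectors for Δ(90), a β-catenin deletion mutant, and for YAP S127A, a mutant of the Hippo effector YAP that stays in the nucleus. The label of the injected mice also names xloc, which is not explained in the sources used here. The third group held livers of uninjected mice (3 males and 2 females) and the fourth held HBs of injected mice (1 male and 4 females), both on a diet with 10% dodecanedioic acid (DDDA) for 3 to 4 weeks per the labels. Mice were injected at 6 to 7 weeks of age, their age at sampling is not given in the sources used here, and the HB tissue was taken from areas that looked healthy. Each library is named here by its animal, such as DT2264. The sources used here do not say whether animals were pooled, and p-values measure the spread between these libraries.

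Notch receptors are cell-surface proteins that are activated by ligands of the Jagged and Delta-like families on neighbouring cells. Ligand binding exposes the receptor to ADAM proteases and then to γ-secretase, and the released intracellular domain enters the nucleus, where it joins Rbpj and Mastermind-like proteins to switch on genes of the Hes and Hey families and Nrarp. In the liver the pathway is best known for the Jag1 and Notch2 signal that directs bile duct formation. Dll4, Notch1, Hey1 and Nrarp are also well-known genes of blood vessel endothelium, and Notch3 and Heyl of pericytes and smooth muscle.

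In GRCm38.p6, 4 of the 10 genes lie on chromosome 2. These are Notch1 (26457902 to 26503822, minus strand), Jag1 (137081451 to 137116520, minus strand), Dll4 (119325784 to 119335666, plus strand) and Nrarp (25180758 to 25183339, plus strand). Notch2 and Hey1 lie on chromosome 3, Notch3 on chromosome 17, Jag2 on chromosome 12, Hes1 on chromosome 16 and Heyl on chromosome 4. Genes annotated across 5 of them reached at most 1.82 CPM (Notch3, Gm38585 or Gm41568, whose reads cannot be told apart from it if strand was not used in counting).

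The promoters of the 3 genes that were higher in HBs on both diets in every library, Notch1, Jag1 and Jag2, are shown because these genes gave the clearest differences below. The sequences are from RefSeq (GRCm38.p6), run from 250 bases before to 50 bases after the annotated start, and read 5′ to 3′ on the gene's own strand. Capitals mark matches to a TEAD motif (GGAATG) or a TCF/LEF motif (CTTTGA), the factors through which YAP and β-catenin act.
Notch1: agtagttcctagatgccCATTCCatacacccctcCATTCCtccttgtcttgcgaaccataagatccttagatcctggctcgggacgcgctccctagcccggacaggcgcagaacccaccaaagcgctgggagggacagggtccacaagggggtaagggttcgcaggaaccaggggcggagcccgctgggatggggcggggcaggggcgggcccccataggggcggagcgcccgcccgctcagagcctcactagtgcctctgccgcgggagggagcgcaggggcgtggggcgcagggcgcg
Jag1: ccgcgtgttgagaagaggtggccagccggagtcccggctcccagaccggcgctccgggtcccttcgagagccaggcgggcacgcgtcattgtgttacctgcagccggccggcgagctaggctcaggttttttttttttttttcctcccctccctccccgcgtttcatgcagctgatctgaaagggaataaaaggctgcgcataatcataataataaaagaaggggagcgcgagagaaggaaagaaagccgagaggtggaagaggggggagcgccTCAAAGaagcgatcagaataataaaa
Jag2: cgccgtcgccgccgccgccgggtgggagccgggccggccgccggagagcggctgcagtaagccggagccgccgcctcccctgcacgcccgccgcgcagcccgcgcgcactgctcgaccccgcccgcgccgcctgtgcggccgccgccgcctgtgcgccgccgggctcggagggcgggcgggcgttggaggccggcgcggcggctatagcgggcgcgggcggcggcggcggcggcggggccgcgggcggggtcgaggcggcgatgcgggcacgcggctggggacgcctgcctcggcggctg
They lie at chr2:26503773-26504072, chr2:137116471-137116770 and chr12:112929446-112929745, all on the minus strand. The Rbpj core (TGGGAA) was searched as well, all 3 motifs were read on both strands, and none of the marked matches overlaps another. Of 32851 promoters of this length, 14.7% held the TEAD letters, 16.0% the TCF/LEF letters and 25.6% the Rbpj core. The Notch1 promoter held the TEAD letters 2 times and the Jag1 promoter the TCF/LEF letters once. The promoters of Jag2, Notch2, Notch3, Dll4 and Nrarp held none of the 3, and no Rbpj core lay in any of the 7 promoters matched. Jag2 had the highest GC content of these at 86.0%, against a median of 52.7% over all promoters. A match is a run of letters and not a bound site.

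Counts per library summed to between 16548771 and 29783324. Livers and HBs were never read in the same lane, and sequencing of the standard diet groups used 1 flow cell while that of the DDDA groups used 2 others, so that diet and sequencing run cannot be told apart. Hepatocyte markers summed to 70461 to 131276 CPM (counts scaled to the library's total) in livers and to 19923 to 46596 in HBs, and markers of HB and fetal liver to 1.86 to 4.71 in livers and 96.6 to 2713 in HBs, in which Dlk1 alone of that list stayed near 0 (at most 0.573 CPM). One HB of the DDDA diet, DT2264, stood apart. Its summed endothelial markers (875 CPM), pericyte and smooth muscle markers (722 CPM) and stellate cell and fibroblast markers (2967 CPM) were the highest of all 20 libraries, where the other HBs reached at most 347, 173 and 698 CPM. Its cholangiocyte markers (1698 CPM, other HBs at most 932) and YAP targets (1012 CPM, others at most 897) were the highest as well. Its hepatocyte markers (19923 CPM) and β-catenin targets (409 CPM, with DT2270 at 418) were the lowest. Where leaving out DT2264 changed a call, a direction or a value by over 1.5 times, the value without it is given beside the result.

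All CPM values given here, marker sums included, are scaled by TMM, a method that corrects for differences in library composition, over all 20 libraries. Fold changes (log2 values in short), their SE and p-values are from edgeR's quasi-likelihood test of the groups compared, with Benjamini-Hochberg adjustment over all genes tested and a threshold of 0.05.

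The clearest differences between HBs and livers were in the Jagged ligands. Jag1, the ligand of bile duct development, rose about 10-fold and Jag2 still more, while Dll4, the endothelial Delta-like ligand, was not called on either diet. Notch1 was moderately higher in HBs, and Notch2, the most abundant receptor transcript, was not called. On the standard diet 6 of the 10 genes were called higher and none lower, where 28.2% of 13830 genes tested were called higher and 26.8% lower (54.9% in either direction). With DDDA 5 were called higher and none lower, against 26.3% and 23.4% (49.7% in either direction) of 13415 genes tested. The median log2 fold change of the 10 was 0.80 and 1.41, beside 0.02 and 0.08 over all genes tested. Without DT2264 the DDDA median was 0.79, with 5 of the 10 still called higher, Notch2 in place of Hey1. In bulk tissue, fewer cells of a type and less RNA per cell cannot be told apart.

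Jag1 stood at 6.92, 6.14, 5.10, 8.03 and 6.02 CPM in the standard diet livers and at 69.1, 55.0, 114.0, 37.1 and 49.7 CPM in the standard diet HBs. It stood at 5.11, 2.88, 4.81, 4.89 and 7.42 CPM in the DDDA livers and at 20.1, 32.2, 54.5, 48.1 and 105.0 CPM in the DDDA HBs. Every HB lay above every liver on both diets, with the highest values in s1800 and DT2264. Jag1 was thus 9.91-fold higher on the standard diet (log2 fold change 3.31, SE 0.28, adjusted p = 3.8e-06) and 10.2-fold higher on the DDDA diet (3.35, SE 0.43, adjusted p = 0.00018). Without DT2264 the latter was 2.94 (adjusted p = 9.3e-05). Cholangiocyte markers, among which Jag1 is not listed, were all higher in the same comparisons (7 of 7 tested on each diet). Their sum ran from 47.6 to 64.0 CPM in livers and from 147 to 1698 CPM in HBs (at most 932 CPM without DT2264). As a share of this sum, a description chosen after the values had been seen, Jag1 overlapped between livers and HBs on both diets. In standard diet HBs the marker Spp1 alone had a mean of 344 CPM and Krt19, another of the markers, 9.1 CPM. The share there follows Spp1 more than the other markers.

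Jag2, the second Jagged ligand, was scarcely detected in livers, with 3 to 7 reads per library on the standard diet and 0 to 6 on the DDDA diet. Its level was 0.295, 0.270, 0.413, 0.246 and 0.425 CPM in standard diet livers and 2.23, 8.04, 5.35, 4.43 and 2.86 CPM in the HBs. In the DDDA livers it was 0.251, 0.376, 0, 0 and 0.212 CPM, and in the DDDA HBs 1.32, 3.03, 1.70, 4.83 and 7.43 CPM. A count of 0 in DL03 and DL04 allows up to 0.183 and 0.222 CPM, taking 3 counts as the limit and covering counting error only. HBs and livers did not overlap on either diet. Jag2 was 13.3-fold higher on the standard diet (log2 fold change 3.73, SE 0.40, adjusted p = 1.7e-05) and 20.4-fold higher on the DDDA diet (4.35, SE 0.83, adjusted p = 0.0017). The size of the second rests on the few liver reads and was 3.94 without DT2264 (adjusted p = 0.0023).

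Dll4 gave 6.26, 8.23, 8.75, 6.06 and 7.11 CPM in standard diet livers and 3.59, 13.5, 8.77, 6.57 and 4.55 CPM in standard diet HBs. The DDDA livers gave 7.12, 4.89, 6.34, 5.18 and 6.71 CPM and the DDDA HBs 2.91, 5.18, 1.95, 8.90 and 44.5 CPM. The groups overlapped on both diets, and HBs were spread on either side of the livers. The log2 fold change was 0.00 (SE 0.31, adjusted p = 0.99) on the standard diet and 1.04 (SE 0.74, adjusted p = 0.27) on the DDDA diet, where it turned to -0.35 (adjusted p = 0.48) without DT2264.

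Among the receptors, Notch1 had 42.7, 43.7, 33.3, 32.5 and 31.8 CPM in standard diet livers and 61.5, 70.3, 65.1, 53.0 and 63.7 CPM in the HBs. The DDDA diet gave 28.4, 38.5, 43.8, 28.6 and 25.8 CPM in livers and 67.5, 81.3, 61.6, 54.3 and 53.8 CPM in HBs. The lowest HB lay above the highest liver on each diet, and DT2264 was here the lowest HB of its group. Notch1 was 1.68-fold higher on the standard diet (log2 fold change 0.75, SE 0.12, adjusted p = 0.00029) and 1.92-fold higher on the DDDA diet (0.94, SE 0.18, adjusted p = 0.0016). Leaving out any one library gave neither a loss of this call nor a change of its direction.

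Notch2, the receptor of bile duct formation, had 96.9, 89.5, 75.2, 59.3 and 80.3 CPM in standard diet livers and 98.3, 90.0, 107.0, 62.7 and 76.2 CPM in HBs. The groups overlapped, and the log2 fold change was 0.09 (SE 0.16, adjusted p = 0.65). With DDDA the livers had 72.9, 68.5, 71.1, 56.9 and 56.5 CPM and the HBs 68.2, 96.9, 76.3, 93.8 and 73.8 CPM. There 4 of 5 HBs lay above every liver, with a log2 value of 0.32 (SE 0.13, adjusted p = 0.058), which DESeq2 called (adjusted p = 0.047). Without DT2264 the value was 0.36 and past the threshold (adjusted p = 0.042).

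Notch3, the mural cell receptor, had 5.01, 5.13, 5.03, 4.42 and 7.47 CPM in standard diet livers and 7.74, 16.0, 12.5, 8.30 and 4.73 CPM in HBs. As many as 4 of 5 HBs lay above every liver, and the log2 fold change was 0.84 (SE 0.29, adjusted p = 0.028). DDDA livers had 3.21, 3.70, 2.92, 2.0 and 1.91 CPM and the HBs 1.63, 6.92, 2.33, 5.35 and 25.2 CPM. These groups overlapped, with a log2 value of 1.57 (SE 0.67, adjusted p = 0.072) that was 0.57 (adjusted p = 0.31) without DT2264. The standard diet call was lost when any one of 6 of the 10 libraries was left out, livers c1, c12, c17 and c4 and HBs s1799 and s1800 (adjusted p up to 0.078).

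Of the targets, Hes1, a transcriptional repressor and the most abundant of the 4, had 11.6, 27.1, 31.3, 9.91 and 22.5 CPM in standard diet livers and 31.3, 35.4, 23.1, 16.0 and 17 CPM in the HBs. The groups overlapped, and the log2 fold change was 0.24 (SE 0.32, adjusted p = 0.55). In mice given DDDA it had 18.1, 18.1, 15.3, 7.11 and 15.0 CPM in livers and 18.6, 24.5, 41.1, 46.8 and 57.1 CPM in HBs. Every HB lay above every liver there, the nearest by a narrow margin (18.6 against 18.1 CPM). The log2 value of 1.33 (SE 0.33, adjusted p = 0.0067), or 2.52-fold, was 1.14 without DT2264 (adjusted p = 0.013). Whether this difference between HB and liver changed with diet was tested directly, and the log2 difference was 1.07 (SE 0.49, adjusted p = 0.81).

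Nrarp, which encodes an ankyrin repeat protein that dampens Notch signals, had 1.18, 1.21, 2.0, 1.8 and 2.13 CPM in standard diet livers and 2.54, 8.08, 4.44, 2.56 and 2.14 CPM in HBs. The groups met at 2.13 and 2.14 CPM without crossing, and the log2 fold change was 1.21 (SE 0.38, adjusted p = 0.018), a call that was lost when all 20 libraries were fitted together (adjusted p = 0.10). Under DDDA it had 2.66, 2.13, 1.95, 0.963 and 1.55 CPM in livers and 0.750, 3.94, 1.70, 3.26 and 16.9 CPM in HBs. These groups overlapped, and the log2 value of 1.49 (SE 0.72, adjusted p = 0.11) was 0.39 without DT2264 (adjusted p = 0.53).

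Hey1, a repressor of the same family as Hes1 that acts in endothelium, was low everywhere, with 3 to 25 reads per standard diet liver. It had 0.516, 0.472, 0.689, 0.246 and 1.52 CPM in these livers and 0.788, 2.50, 1.61, 1.49 and 1.70 CPM in the HBs. The DDDA livers had 0.652, 0.564, 0.609, 0.444 and 0.424 CPM and the DDDA HBs 0.441, 1.16, 0.584, 2.58 and 5.71 CPM. On both diets 3 of 5 HBs lay above every liver. The log2 fold change was 1.18 (SE 0.44, adjusted p = 0.040) and 1.92 (SE 0.67, adjusted p = 0.034), and both calls were the least stable of the genes called. The first was lost in 8 of 10 fits with 1 library left out, all but those without c7 or s1758, and the second in 7 of 10, including the fit without DT2264 (1.13, adjusted p = 0.097).

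Heyl, the member of this family found in mural cells, had 4.2, 3.10, 5.37, 1.88 and 4.56 CPM in standard diet livers and 3.24, 11.4, 8.26, 3.54 and 2.95 CPM in HBs. It had 5.92, 2.32, 2.31, 2.22 and 2.26 CPM in DDDA livers and 0.661, 2.40, 1.02, 4.47 and 22.8 CPM in DDDA HBs. The groups overlapped on both diets. The log2 fold changes were 0.59 (SE 0.41, adjusted p = 0.25) and 1.03 (SE 0.86, adjusted p = 0.34), and the second turned to -0.49 (adjusted p = 0.49) without DT2264.

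**Figure D1:**
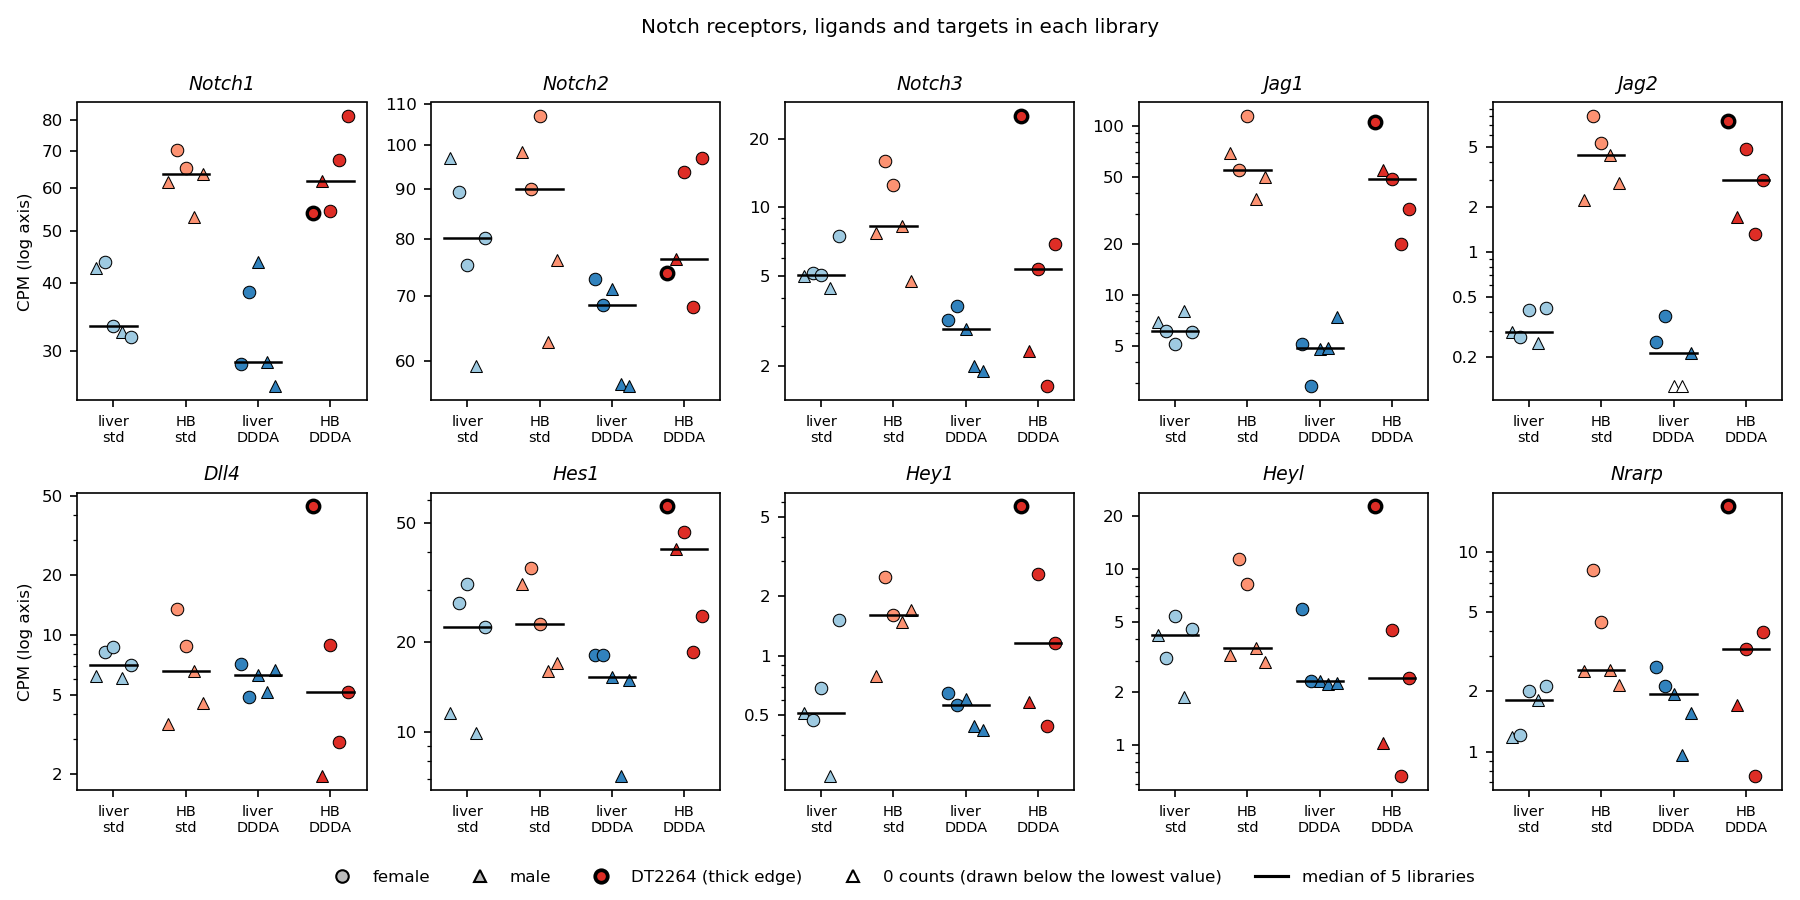
CPM of each of the 10 genes (log axes) in the 20 libraries, with circles for females, triangles for males, a bar at the median of 5 libraries and a thick edge for DT2264; std is the standard diet. HBs lie above livers without overlap for Notch1, Jag1 and Jag2 on both diets, and DT2264 holds the highest value of its group for 8 of the 10 genes.

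Counted by groups that did not overlap, 4 genes on the standard diet (Notch1, Jag1, Jag2 and Nrarp) and 4 on the DDDA diet (Notch1, Jag1, Jag2 and Hes1) had every HB above every liver, where 21.7% and 19.3% of all genes tested did. No gene of the 10 had every HB below every liver, as did 19.6% and 18.8% of all genes tested.

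**Figure D2:**
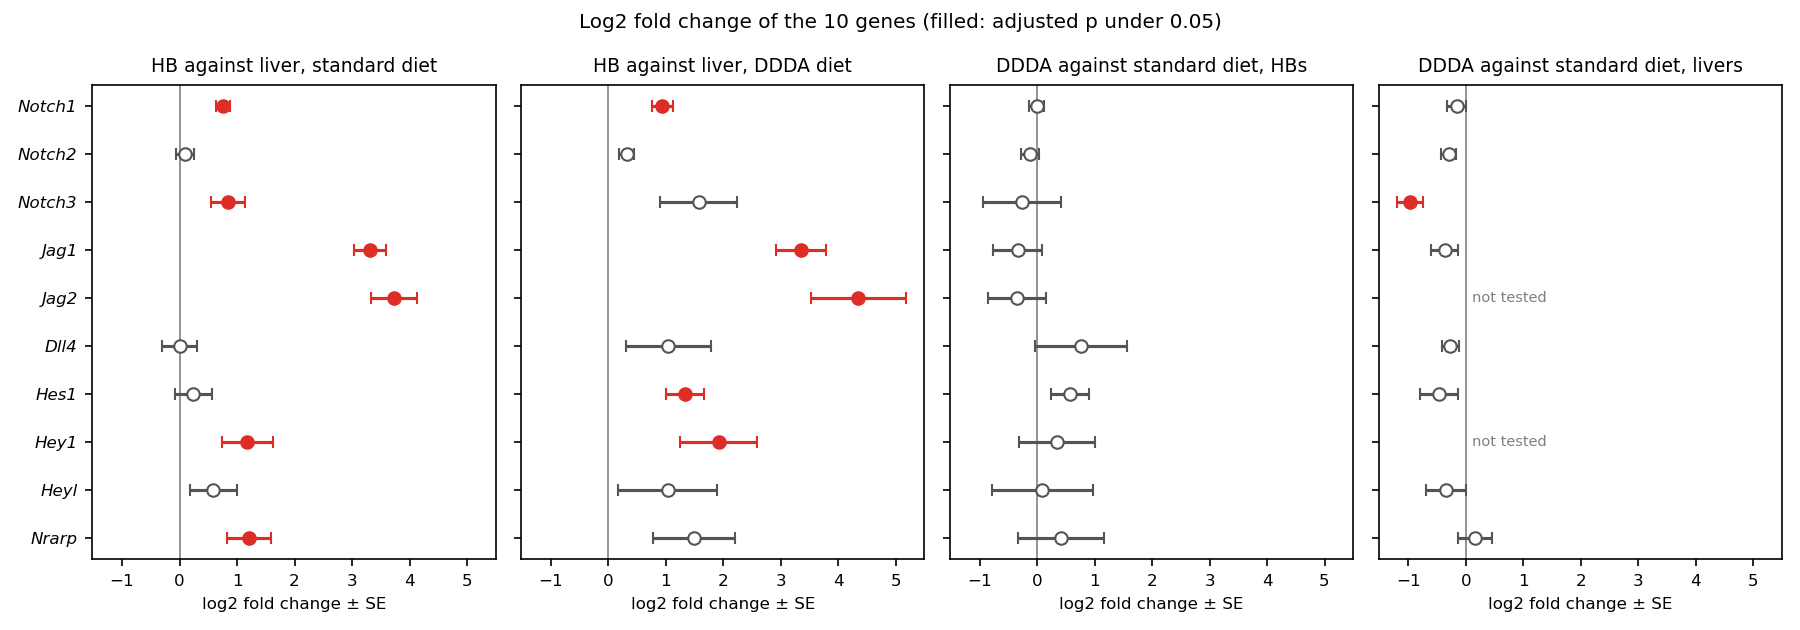
Log2 fold change with its SE (bars) of each gene in 4 comparisons of 5 against 5 libraries, filled where the adjusted p was under 0.05. Jag1 and Jag2 lie between 3.31 and 4.35 in HBs against livers, and Notch3 in livers is the single filled point in the comparisons of diet.

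Diet was compared within each tissue. In HBs none of the 10 genes was called between DDDA and standard diet, and for all 10 the groups overlapped. In livers Notch3 was the 1 gene called, and it was 1.96-fold lower on the DDDA diet. Diet and sequencing run cannot be told apart in either tissue.

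In HBs 0.298% of 14082 genes tested were called by edgeR (42 genes, 0.0994% higher and 0.199% lower), groups did not overlap for 2.94% (higher) and 1.97% (lower), and 2299 had an unadjusted p under 0.05, none of the 10 among them. The log2 fold changes ran from -0.35 for Jag2 (SE 0.51, adjusted p = 0.78) to 0.77 for Dll4 (SE 0.80, adjusted p = 0.67), and the largest relative to its SE was 0.58 for Hes1 (SE 0.33, adjusted p = 0.42). The SE of Notch1 and Notch2 were 0.13 and 0.16, and those of Notch3, Dll4, Hey1, Heyl and Nrarp lay between 0.66 and 0.88. DESeq2 called none of the 10 either. Without DT2264 the log2 fold change of Dll4 was -0.69, of Hey1 -0.49, of Heyl -1.50 and of Nrarp -0.75 (adjusted p from 0.20 to 0.62), each of the opposite sign. Notch3 moved from -0.26 to -1.32 (adjusted p = 0.16), Jag1 from -0.34 to -0.79 (adjusted p = 0.24) and Jag2 from -0.35 to -0.80 (adjusted p = 0.35).

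In livers 8 of the 10 genes passed the filter on low counts, Jag2 and Hey1 being left out. Of 12803 genes tested, 3.07% were called lower and 4.27% higher on the DDDA diet (7.34% in all). Notch3 lay at 4.42 to 7.47 CPM on the standard diet and at 1.91 to 3.70 CPM on the DDDA diet, as listed above. The 2 groups did not overlap in this direction, as was so for 3.68% of genes tested, with 5.8% in the other. The log2 value was -0.97 (SE 0.23, adjusted p = 0.032), and the call was lost when any one of 7 of the 10 livers was left out (c1, c12, c17, c7, DL03, DL04 and DL05, adjusted p up to 0.069), with values from -1.11 to -0.87. Pericyte and smooth muscle markers, of which none of 6 tested was called, summed to 74.1 to 87.6 CPM on the standard diet and 68.5 to 118 CPM on the DDDA diet. The log2 values of the 6 ran from -0.93 for Myh11 (adjusted p = 0.12, the 1 with an unadjusted p under 0.05) to 0.17 for Mcam (adjusted p = 0.84), with a median of -0.08. The other 7 genes had log2 fold changes from -0.46 (Hes1, SE 0.33, adjusted p = 0.41) to 0.16 (Nrarp, SE 0.29, adjusted p = 0.77), and Notch2 had -0.30 (SE 0.13, adjusted p = 0.19).

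The difference of the diet response between HBs and livers was tested over all 20 libraries with edgeR. Of 14502 genes, 0% were called in either direction, 877 had an unadjusted p under 0.05, and of the 10 genes Hes1 was the 1 among these, with the value given above.

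Sex was compared after the values had been seen, with diet as a covariate, because Hes1 was uneven within the standard diet livers. The adjusted p of Hes1 given below does not allow for this choice. In livers Hes1 stood at 27.1, 31.3 and 22.5 CPM in standard diet females against 11.6 and 9.91 CPM in the males. On the DDDA diet it stood at 18.1 and 18.1 CPM in females against 15.3, 7.11 and 15.0 CPM in males. Females lay above males within each diet. The log2 fold change was 0.89 (SE 0.22, adjusted p = 0.021), and it was lost without male c1 (adjusted p = 0.064) or male c4 (adjusted p = 0.088). Of the 9 genes tested it was the 1 called, where 8.67% of 13341 genes tested were higher and 6.24% lower in female livers (14.9% in all). Macrophage and leukocyte markers summed to 280 to 570 CPM in female livers and 152 to 201 CPM in male livers, with 8 of 10 called higher in females, and endothelial markers to 363 to 500 and 338 to 410 CPM, with 4 of 12 called higher and 1 lower. Their part in the Hes1 difference was not tested. With sex as a covariate the Hes1 difference between HBs and livers on the standard diet was 0.50 (adjusted p = 0.11).

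In HBs none of the 10 genes was called between 6 females and 4 males, where 0.00656% of 15242 genes tested were higher and 0.0328% lower (0.0394% in all), and of the 10 Jag2 alone had an unadjusted p under 0.05. DESeq2 called none of the 10 either. The largest log2 fold changes were Heyl 2.05 (SE 0.96), Dll4 1.8 (SE 0.91), Nrarp 1.56 (SE 0.79), Notch3 1.41 (SE 0.74) and Jag2 1.15 (SE 0.50), with adjusted p from 0.53 to 0.57. DT2264 is a female.

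Levels were compared between genes by TPM, which the authors' software divided by transcript length and brought to a common sum. TPM lacks the TMM correction, whose factors ran from 0.716 to 0.897 in livers and from 1.1 to 1.366 in HBs. The TPM level of a gene should therefore not be compared between livers and HBs. The order of the medians began with Hes1, Notch2 and Notch1 in all 4 groups, at 23.2, 13.6 and 5.96 TPM in standard diet livers and 42.9, 26.5 and 19.4 TPM in standard diet HBs. Their ranges overlapped between neighbours in both of these groups. On the DDDA diet they were 13.2, 10.1 and 5.20 TPM in livers, where Notch1 lay apart below Notch2, and 61.0, 19.9 and 16.6 TPM in HBs, where Hes1 lay apart above Notch2. The fourth place was held by Dll4 in livers (3.66 and 2.74 TPM), apart from Notch1 above it on both diets and from every gene below it on the standard diet (on the DDDA diet Heyl reached 2.27 TPM in DL01 and Dll4 went down to 2.08 TPM in DL04), and by Jag1 in HBs (14.5 and 11 TPM), whose range met those of Notch1 and Dll4. Jag2 was the last in livers (0.0957 and 0.0625 TPM) and Hey1 in HBs (1.8 and 1.37 TPM). From the fourth to the last place in HBs every neighbour overlapped with the next.

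The make-up of the ligand transcripts differed between the tissues. Of the summed TPM of Jag1, Jag2, Dll1, Dll3 and Dll4, Jag1 held 7.22 to 19.1% in standard diet livers and 41.2 to 68.4% in the HBs, and 7.08 to 15.7% and 36.0 to 69.8% on the DDDA diet. Dll4 held 38.4 to 49.8% and Dll1, the other Delta-like ligand, 30.5 to 51.8% in standard diet livers, against 12.1 to 34.4% and 8.66 to 20.9% in the HBs. In DDDA HBs Dll4 ran from 8.47 to 52.0%, the last in DT2264. Dll3 was at 0 in all 10 DDDA libraries. Among the receptors, Notch2 held 55.7 to 62.2% in standard diet livers and 40.9 to 52.5% in HBs, and Notch1 26.3 to 33.8% and 33.8 to 43.3%. Notch4, the endothelial receptor, reached 36.7% in DT2264 and at most 14.3% in the other libraries. These shares are given as descriptions, with no test.

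**Figure D3:**
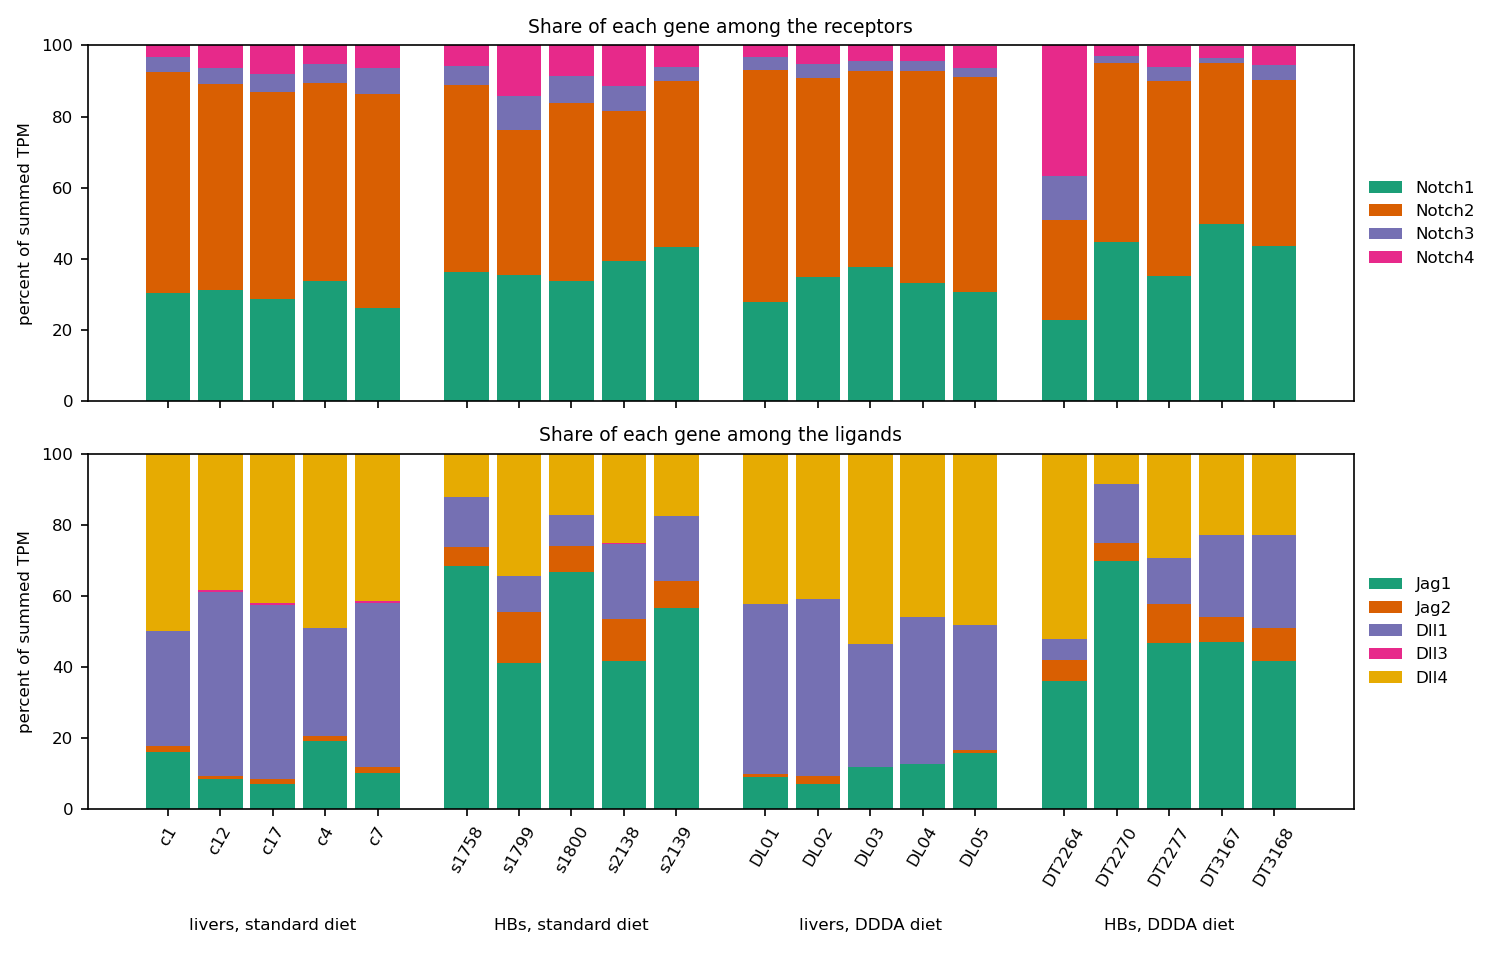
Percent of the summed TPM of 4 receptors (top) and 5 ligands (bottom) held by each gene in each of the 20 libraries, one bar a library. Jag1 holds at most 19.1% of the ligand transcripts in livers and at least 36.0% in HBs, and in DT2264 Notch4 holds 36.7% of the receptors.

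The spread among HBs differed between the genes. On the DDDA diet the highest HB exceeded the lowest by 34.5 times for Heyl, 22.9 for Dll4, 22.5 for Nrarp, 15.5 for Notch3 and 12.9 for Hey1, by 5.62 for Jag2, 5.2 for Jag1 and 3.07 for Hes1, and by 1.51 for Notch1 and 1.42 for Notch2. Without DT2264 the first 5 were 6.76, 4.56, 5.25, 4.25 and 5.85 times, and Jag2, Jag1 and Hes1 were 3.66, 2.71 and 2.52 times. On the standard diet the spread was 3.09 to 3.86 times for Jag1, Jag2, Notch3, Dll4, Hey1, Heyl and Nrarp, 2.21 for Hes1, 1.71 for Notch2 and 1.33 for Notch1. DT2264 was the highest HB for 8 of the 10 genes and DT3167 the lowest for 8, and on the standard diet s1799 was the highest for 8. Endothelial markers summed to 350 to 500 CPM in standard diet livers, 155 to 347 in the HBs, 338 to 417 in DDDA livers and 67.9 to 875 in DDDA HBs, with the lowest sums in DT2270 and DT3167. On the standard diet 6 of 12 endothelial markers were called lower in HBs and 1 higher, beside 26.8% and 28.2% of all genes tested. On the DDDA diet 3 were called lower and none higher, beside 23.4% and 26.3% of all genes tested. Leaving out DT2264 gave 6 lower, beside 23.4% of all genes tested. The endothelial markers Pecam1 and Cdh5 had log2 fold changes of -0.33 (adjusted p = 0.34) and -0.69 (adjusted p = 0.090) on the standard diet. On the DDDA diet without DT2264 these were -0.63 (adjusted p = 0.18) and -1.13 (adjusted p = 0.042). Among DDDA HBs Pecam1 ran from 6.44 to 139 CPM and Cdh5 from 6.39 to 178 CPM.

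As a share of the summed endothelial markers, chosen after the values had been seen and with no test, Dll4 amounted to 1.57 to 1.79% in standard diet livers and 2.28 to 3.89% in HBs, and to 1.35 to 1.8% and 2.52 to 5.09% on the DDDA diet. The HBs lay above the livers without overlap on each diet, DT2264 included. This was not particular to Dll4. Against the same sum Notch3, Nrarp, Hey1, Jag1 and Jag2 did so on both diets, and Notch1 and Heyl on the standard diet. The sum itself holds markers that were lower in HBs, as given above. Notch3 amounted to 5.68 to 8.61% of the summed pericyte and smooth muscle markers in standard diet livers and 7.76 to 11.8% in the HBs, and to 2.32 to 5.39% and 3.10 to 11% on the DDDA diet, with overlap. Heyl amounted to 2.42 to 7.25% and 3.31 to 7.75% of the same sum on the standard diet, also with overlap. Jag1 amounted to 8.9 to 14.8% of the summed cholangiocyte markers in standard diet livers (median 12.6%) and 5.9 to 19.1% in the HBs (median 12.6%). On the DDDA diet it amounted to 4.51 to 12.7% and 6.16 to 34.9%, so that the groups overlapped on both diets. Spp1 made up much of this sum in standard diet HBs, as given above. Against the endothelial sum, Jag1 amounted to 1.02 to 2.26% in standard diet livers and 12.9 to 44.5% in the HBs. The part of cell make-up in these differences was not tested.

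**Figure D4:**
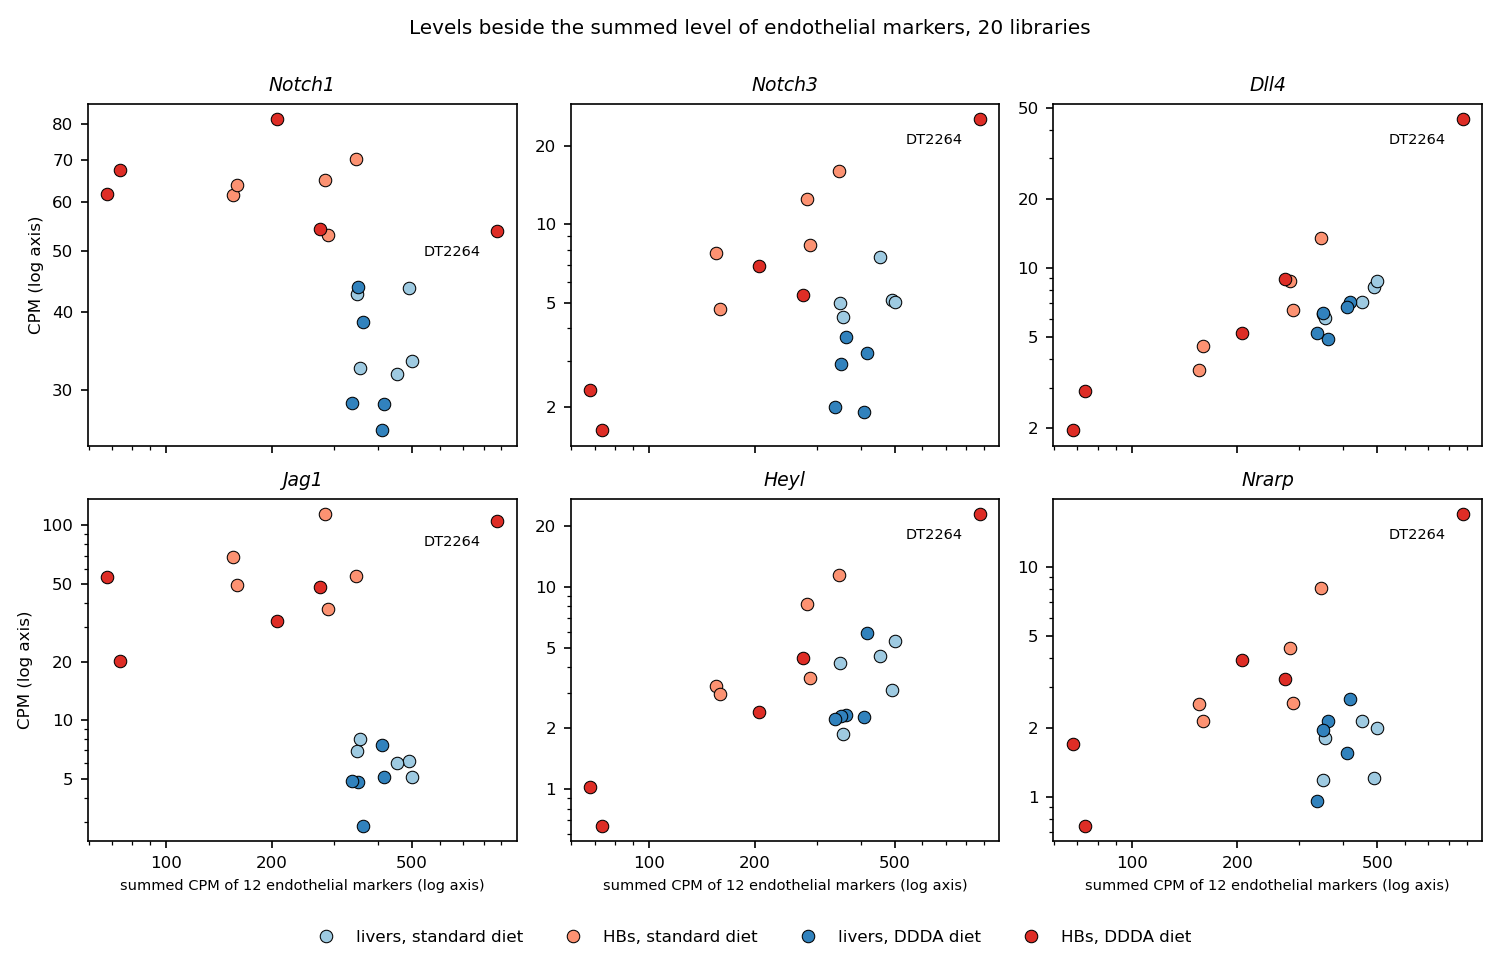
CPM of 6 genes against the summed CPM of 12 endothelial markers (both log axes) in 20 libraries, coloured by group. Dll4 lies highest in DT2264 (44.5 CPM), which has the highest sum, and lowest in DT2270 (1.95 CPM), which has the lowest. In livers Dll4 stays between 4.89 and 8.75 CPM and Jag1 at or under 8.03 CPM. Among DDDA HBs Jag1 is also highest in DT2264 (105.0 CPM) and is lowest in DT3167 (20.1 CPM).

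The genes that moved most closely with 6 of the 10 were listed by Pearson's r of log2(CPM + 0.5) over the 20 libraries after the mean of each group was subtracted, among 10496 genes (10497 for Jag2) with a mean of at least 5 CPM. The points share their library's depth and cell make-up, and no p is given. For Dll4 these were Efnb2 (r = 0.98), Cldn5 (0.97) and Robo4 (0.97), which stayed at 0.93, 0.92 and 0.93 without DT2264. For Notch3 they were Cd93 (0.96), Mef2c (0.95) and Man1c1 (0.95), at 0.90, 0.89 and 0.87 without DT2264. For Jag2 they were Agtrap, Hip1 and Itpkb (each 0.94, and 0.92 without DT2264). The values were lower for Notch1, whose nearest were Pcnt (0.78), Fancm (0.77) and Copg2 (0.73). They were also lower for Jag1 with 2900097C17Rik (0.88), F3 (0.86) and Sh3rf1 (0.81), and for Hes1 with Sufu (0.84), Prcp (0.84) and AI846148 (0.82). Without DT2264 they were 0.76, 0.76 and 0.73 for Notch1, 0.87, 0.79 and 0.69 for Jag1, and 0.83, 0.83 and 0.81 for Hes1. Within the 10 genes the same measure was 0.95 for Notch3 and Nrarp and 0.93 for Dll4 and Heyl (0.90 and 0.83 without DT2264), and -0.33 for Notch1 and Jag1.

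Of 49 other genes of the pathway, 42 were tested between HBs and livers on each diet. On the standard diet 14 were higher and 11 lower, and on the DDDA diet 19 were higher and 11 lower. Their median log2 fold change was 0.04 and 0.26. The DDDA counts without DT2264 were 15 and 11, with a median of 0.18. The standard diet counts are close to the shares of all genes called, given above. The DDDA count of genes higher lies above its share of 26.3%. Without DT2264 35.7% were higher and 26.2% lower, beside 26% and 23.4% of 13538 genes tested.

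Among the other receptors and ligands, 2 of 3 tested rose on each diet, and 1 of 3 on the DDDA diet without DT2264. Notch4 had 3.39 to 6.96 CPM in standard diet livers and 6.7 to 21.1 CPM in the HBs, a log2 value of 1.12 (SE 0.32, adjusted p = 0.011). With DDDA it had 2.51 to 4.13 CPM in livers, 64.3 CPM in DT2264 and 3.06 to 7.36 CPM in the other HBs, and the log2 fold change of 2.28 (SE 0.83, adjusted p = 0.041) was 0.59 without DT2264 (adjusted p = 0.16). Dlk2, a non-canonical ligand related to Dlk1, went from at most 0.243 CPM in standard diet livers to 5.04 to 8.53 CPM in the HBs, with log2 fold changes of 5.71 (SE 0.35, adjusted p = 3.9e-07) and 7.23 (SE 0.98, adjusted p = 0.00024), whose size rests on few liver reads. Dll1 was not called (-0.72, adjusted p = 0.057, and -0.37, adjusted p = 0.26).

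Of the 20 genes that process receptors and ligands, 5 were higher and 6 lower on the standard diet, beside 28.2% and 26.8% of all genes tested. On the DDDA diet 8 were higher and 7 lower (5 and 7 without DT2264), beside 26.3% and 23.4%. Neurl1a, a ubiquitin ligase of the Neuralized family that acts on ligands, rose from 0.512 ± 0.281 to 13.8 ± 4.85 CPM (mean ± SD, n = 5 each) on the standard diet, with log2 fold changes of 4.70 and 6.13 (adjusted p = 2.4e-06 and 9.4e-05). Eogt, which adds O-GlcNAc to receptors, rose by 1.48 and 1.72 and Adam10, the protease of the first cut, by 0.81 and 0.98 on the log2 scale. Psen2, one of the catalytic subunits of γ-secretase, fell from 207 ± 57.3 to 53.1 ± 13.3 CPM on the standard diet, with log2 fold changes of -1.97 and -1.35 (adjusted p = 3.9e-05 and 4.3e-05), and Furin, which cleaves the receptor on its way to the surface, changed by -1.10 and -0.88.

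In the nuclear complex Maml2, a Mastermind-like coactivator, and Rbpj rose on the standard diet (log2 fold changes 0.85 and 0.40, adjusted p = 0.0061 and 0.040). Maml1, Snw1 and Spen, of which Spen is a corepressor that binds Rbpj, rose on the DDDA diet (0.33, 0.28 and 0.27, adjusted p from 0.010 to 0.045). None of the 7 genes of this list was lower on either diet, where 26.8% and 23.4% of all genes tested were. Of 10 inhibitors and genes of turnover, 3 were higher and 4 lower on the standard diet, and 4 and 3 on the DDDA diet. The shares of all genes tested were 28.2% and 26.8%, and 26.3% and 23.4%. The Deltex gene Dtx3 rose by 2.11 and 2.33 and the ubiquitin ligase Itch changed by -1.03 and -0.88 on the log2 scale. Dtx3l fell by 0.77 and 0.91, and Dtx4 rose by 1.10 and 1.14. Numb, which opposes Notch in dividing cells, changed by -0.55 and -0.45 (adjusted p = 0.00038 and 0.0055).

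Of 7 other Hes, Hey and Sox targets, 2 passed the filter. Sox9, a factor of bile duct cells, rose from 5.54 ± 0.928 to 43.5 ± 22.1 CPM (n = 5 each) on the standard diet, with log2 fold changes of 2.95 (SE 0.32, adjusted p = 1.9e-05) and 2.86 (SE 0.51, adjusted p = 0.0012), and it is also one of the cholangiocyte markers above. Hes6 changed by -1.64 (SE 0.31, adjusted p = 0.00090) and -1.51 (SE 0.31, adjusted p = 0.0026). None of the 49 was called between diets, in HBs (42 tested) or livers (39 tested), where 6 and 10 had an unadjusted p under 0.05. Of all genes tested, 0.298% in HBs and 7.34% in livers were called. An unadjusted p under 0.05 was held by 2299 of 14082 genes in HBs and 3179 of 12803 in livers.

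**Figure D5:**
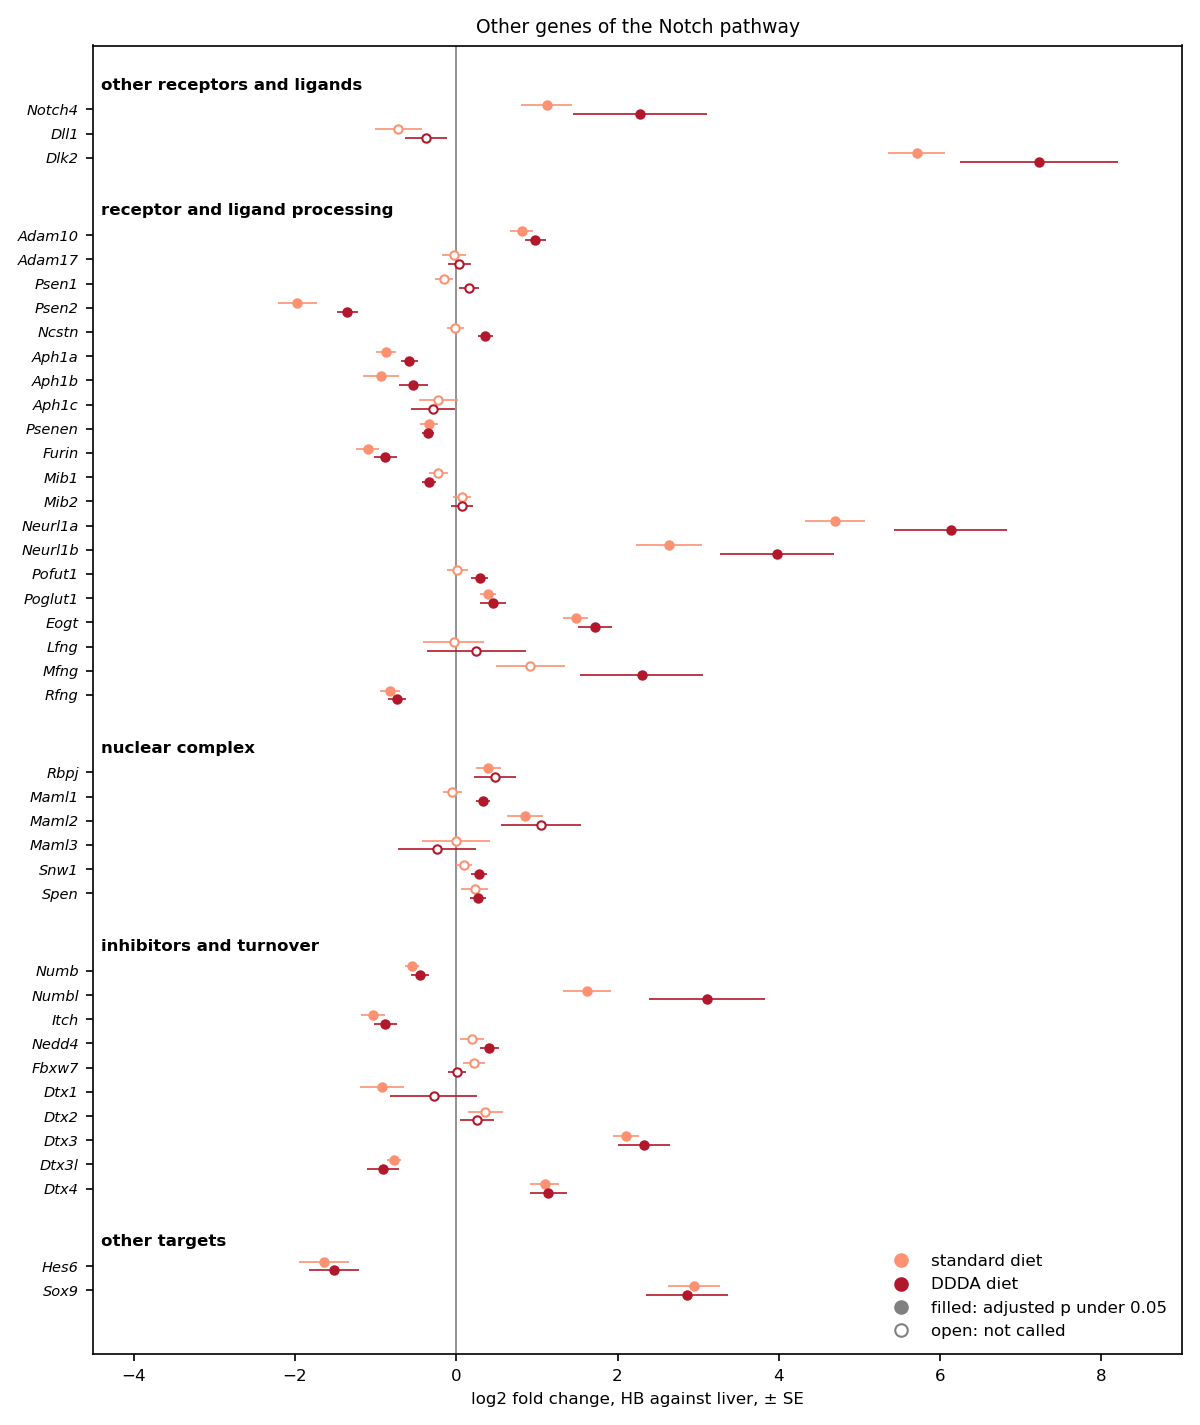
Log2 fold change with its SE (bars) of HBs against livers for other pathway genes that were tested, grouped by role, on the standard (light) and DDDA (dark) diet, filled where the adjusted p was under 0.05. Dlk2 and Neurl1a lie at 4.70 or above on both diets, and Psen2, Hes6 and Itch lie below 0 on both.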

How the data were processed

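RNA-Seq libraries were made with a directional kit from bulk liver or HB tissue. The deposited read counts per gene are whole numbers that the authors' software (CLC Genomics Workbench, build GRCm38.p6 in the processing notes) wrote with no normalization. The authors also deposited RPKM and TPM values, scaled for exon length and depth. Whether counting used strand is not given in the sources used here. The columns of the authors' own comparisons hold fold changes and p-values and were not used. Only the standard diet columns are headed as paired and trimmed, the DDDA columns carrying neither word. Another 5 HBs, of a longer DDDA diet, are not analysed here.

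Counts were tested in edgeR 4.0.16 (limma 3.58.1, R 4.3.3) with TMM scaling, filterByExpr, the quasi-likelihood F-test and Benjamini-Hochberg adjustment over all genes kept, in fits of the 2 groups compared, or of all 20 libraries for the difference of diet responses. SE is the log2 fold change over the root of F. TPM served only to compare levels between genes. No pair of libraries had over 99% identical counts. As alternatives, DESeq2 (version 1.42.0) and RLE scaling were run, the filter was opened to any gene with 1 count or more, 1 fit was made of all 20 libraries, sex was added to the model, trends with transcript length were removed (lowess, span 0.3), libraries were left out, and RPKM replaced TPM. The code was tested on simulated data. Tables and figures used Python 3.11.15, numpy 2.4.6, pandas 2.3.3 and matplotlib 3.10.9.

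All 10 genes are named in every comparison, and of each other pathway list up to 4 past the threshold with the smallest p. Dll1, Myh11, Mcam and Spp1 are outside this rule and were chosen after their values were seen. The genes, the lists, the libraries left out together and the rule for naming genes were chosen with earlier results of these data known. The comparison of sexes, the shares of marker sums and the fits of other pathway genes without DT2264 were added after the values were seen. A gene of the other pathway lists is counted in their totals but is not reported here by name. Promoters were matched by symbol for 7 of the 10 genes.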

Additional observations from a re-analysis of the deposited data

Results flagged for a closer look

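Each gene was checked in each of the 4 groups for a library far from the other 4, by the gap to its nearest neighbour over the whole range (limit 0.71 for 5 samples). Of 40 such sets 7 passed, and 4 of the 7 were DT2264. The limit passes about 1 in 20 independent sets of normal values. These sets share libraries and hold CPM without logs, so their count cannot be set against that rate. In DT2264 Dll4 stood at 44.5 CPM (others 1.95 to 8.90), Notch3 at 25.2 CPM (others 1.63 to 6.92), Heyl at 22.8 CPM (others 0.661 to 4.47) and Nrarp at 16.9 CPM (others 0.750 to 3.94). The same library had the highest summed endothelial, pericyte, stellate cell and cholangiocyte markers. Among standard diet livers Notch3 was highest in c7 at 7.47 CPM (others 4.42 to 5.13). Among DDDA livers Heyl was highest in DL01 at 5.92 CPM (others 2.22 to 2.32), a library with the highest pericyte and smooth muscle sum of its group (118 CPM, others 68.5 to 82.2), and Hes1 was lowest in DL04 at 7.11 CPM (others 15.0 to 18.1).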

How the results depend on the processing

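Under the alternatives other than leaving out 1 library at a time, 115 of 118 counts of called genes and shares stayed equal or within 1.5 times. Counts that were 0 at first and stayed at 0 are among these. So are the shares, which could not change, because within a library TPM is RPKM brought to a common sum. Of the log2 fold changes of single genes, 346 kept their sign and their side of the threshold. A call was lost for 10 and gained for 4, and 21 were of the opposite sign. With all 20 libraries in one fit, 3 of the 10 genes were called higher in HBs on the standard diet in place of 6 (Notch3 adjusted p = 0.20, Hey1 0.099, Nrarp 0.10), and 0 were lower in DDDA livers in place of 1 (Notch3 0.36). The latter count was also 0 without DL03, the liver of the other flow cell (Notch3 0.066). The cause was not tested. Jag1 stayed between 2.82 and 3.48, Jag2 between 3.52 and 4.41 and Notch1 between 0.60 and 1.10 (log2, HB against liver) over these alternatives and both diets, and each was called in all of them. Hey1 on the standard diet was lost with every gene of at least 1 count (adjusted p = 0.057), and Notch3 with the length trend removed (0.063). Hey1 on the DDDA diet was lost with sex as a covariate (0.19), without DT2264 and DT2277 (0.40) and without DL03 and DT3168 (0.067). On the DDDA diet Notch3 was called by DESeq2 (0.032), and Notch3 (0.021) and Nrarp (0.045) with all 20 libraries. RLE scaling moved the values by at most 0.04.

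Values of the opposite sign, none of them past the threshold, came mostly without DT2264 and DT2277. They were Dll4 -0.83 and Heyl -1.11 between DDDA HBs and livers, and Notch1 0.12, Dll4 -1.18, Hey1 -1.17, Heyl -2.12 and Nrarp -0.92 between diets in HBs. For the difference of diet responses they were Notch3 -0.43, Jag1 -0.50, Jag2 -0.23, Dll4 -0.84, Hey1 -0.75, Heyl -1.71 and Nrarp -1.01. With sex as a covariate they were Dll4 -0.10, Hey1 -0.21, Heyl -0.79 and Nrarp -0.19 between diets in HBs, and Heyl -0.22 and Nrarp -0.21 for the difference of diet responses. With the length trend removed Notch2 was -0.09 between standard diet HBs and livers.

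With 1 library left out at a time, 4 to 6 genes were called higher in HBs on the standard diet, 4 to 8 on the DDDA diet (8 without DT3167), 0 to 1 lower in DDDA livers, 0 to 1 higher in female livers, and 0 otherwise. Ranges that held both signs were, between standard diet HBs and livers, Dll4 -0.32 to 0.17, between DDDA HBs and livers Dll4 -0.35 to 1.31 and Heyl -0.49 to 1.48, between diets in HBs Notch1 -0.11 to 0.05, Dll4 -0.69 to 1.11, Hey1 -0.49 to 0.60, Heyl -1.50 to 0.48 and Nrarp -0.75 to 0.85, and between diets in livers Nrarp -0.01 to 0.29. For the difference of diet responses they were Notch3 -0.29 to 0.96, Jag1 -0.39 to 0.30, Dll4 -0.38 to 1.33, Hey1 -0.09 to 0.94, Heyl -1.11 to 0.82 and Nrarp -0.86 to 0.66. No paired analysis was possible because the labels give animals no numbers shared between groups. Depth limits Jag2 and Hey1 in livers, with 0 to 7 and 3 to 25 reads per library.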
